A study of Mus musculus with 7 samples.

Results

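The genes described are 8 mouse germline genes, Tex19.1, Rhox5, Rhox9, Dazl, Ddx4, Taf7l, Piwil2 and Stag3, read on all 7 arrays of the series. They were taken by their symbol in the platform's probe annotation, which gave 10 probes: 3 for Ddx4 and 1 for each of the other 7 genes. The platform named 16593 genes, of which 9263 were above background on at least 1 array and entered the tests, all 8 germline genes among them.

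The samples were 7 RNA preparations of cells of the OG2 mouse strain, which carries a green fluorescent protein reporter under regulatory sequence of Pou5f1, each hybridised to 1 Illumina bead array. Lineage-negative bone marrow cells (LinNeg_BM), the marrow fraction depleted of mature blood cells, and embryonic stem cells (ESC) gave 1 array each. From lineage-negative marrow, 3 lines of induced pluripotent stem cells (iPSCs) had been derived, numbered 1.1.2, 7 and 9 (LinNeg_iPSC), with 1 array each. Line 1.1 of iPSCs from lineage-positive marrow (LinPos_iPSC) and iPSCs from embryonic fibroblasts (MEF_iPSC) gave 1 array each. The age and sex of the animals, the agents used for reprogramming and the presence of feeder cells are not given in the labels, and the tissue field reads bone marrow for all 7 samples. Nothing in the labels says that the 3 lines came from different mice, so p-values measure the spread between these 3 lines only. The series set iPSC lines of primitive marrow beside their cells of origin, ES cells and iPSCs of other origins.

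Germline genes are normally used in egg and sperm precursors and kept silent in body cells, in many cases by DNA methylation of CpG-rich promoters and by a variant polycomb complex that contains PCGF6, MGA and E2F6. Mouse pluripotent cells are known to transcribe a subset of them, the early embryo and the germ line sharing part of their gene use. The 8 genes act at different steps: Tex19.1 and Piwil2 restrain transposable elements, Dazl and Ddx4 handle RNA in germ cells, Stag3 belongs to the meiotic cohesin ring, Taf7l is a germ cell variant of a TFIID subunit, and Rhox5 and Rhox9 are homeobox genes of an X-linked cluster expressed in reproductive tissues and placenta.

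Of the 8 genes, 6 matched RefSeq's promoter table of assembly GRCm38.p6, from which the 250 bases before the transcription start were read. The 4 sequences below are shown because these genes were bright on all pluripotent arrays and differ in CpG density, and capitals mark each CpG.
Tex19.1, chr11:121145893-121146142, + strand: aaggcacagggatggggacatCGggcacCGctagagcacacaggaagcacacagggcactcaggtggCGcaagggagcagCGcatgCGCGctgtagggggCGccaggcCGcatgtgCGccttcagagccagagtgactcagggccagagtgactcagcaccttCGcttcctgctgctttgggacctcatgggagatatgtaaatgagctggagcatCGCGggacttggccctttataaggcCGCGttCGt
Dazl, chr17:50293621-50293870, - strand: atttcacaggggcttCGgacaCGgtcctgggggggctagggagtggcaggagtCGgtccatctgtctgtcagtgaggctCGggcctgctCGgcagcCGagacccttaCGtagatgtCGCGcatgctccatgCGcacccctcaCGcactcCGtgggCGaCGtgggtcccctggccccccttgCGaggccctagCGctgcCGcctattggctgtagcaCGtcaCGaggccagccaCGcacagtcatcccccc
Stag3, chr5:138280259-138280508, + strand: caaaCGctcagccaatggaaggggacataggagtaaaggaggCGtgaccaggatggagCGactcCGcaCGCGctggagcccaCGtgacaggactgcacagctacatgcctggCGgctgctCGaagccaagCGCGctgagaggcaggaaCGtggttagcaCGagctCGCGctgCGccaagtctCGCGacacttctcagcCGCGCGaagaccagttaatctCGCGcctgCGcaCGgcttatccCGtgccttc
Rhox5, chrX:37754358-37754607, + strand: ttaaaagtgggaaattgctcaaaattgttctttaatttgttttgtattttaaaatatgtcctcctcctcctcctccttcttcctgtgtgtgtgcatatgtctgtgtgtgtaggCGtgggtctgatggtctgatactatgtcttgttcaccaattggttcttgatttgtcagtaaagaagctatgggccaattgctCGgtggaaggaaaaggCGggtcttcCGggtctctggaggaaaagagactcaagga
The Tex19.1 window held 15 CpGs, that of Dazl 20 and that of Stag3 26, against a median of 6 over the 32851 promoters of the table. Rhox5 held 4, fewer than the median, with a ratio of observed to expected CpG of 0.363 beside 0.643 for Tex19.1, 0.710 for Dazl and 1.05 for Stag3. Among the genes that stayed near background, the windows of Ddx4 and Taf7l held 31 and 14 CpGs. A CpG count above the median was thus shared by 5 of the 6 matched genes, bright and dim ones alike, and Rhox5 was the exception. Such counts are common: 70.6% of all promoters held fewer than Taf7l and 72.7% fewer than Tex19.1. For Dazl, Stag3 and Ddx4 the shares were 82.1%, 90.4% and 94.8%. No methylation was measured in these samples.

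**Figure D1:**
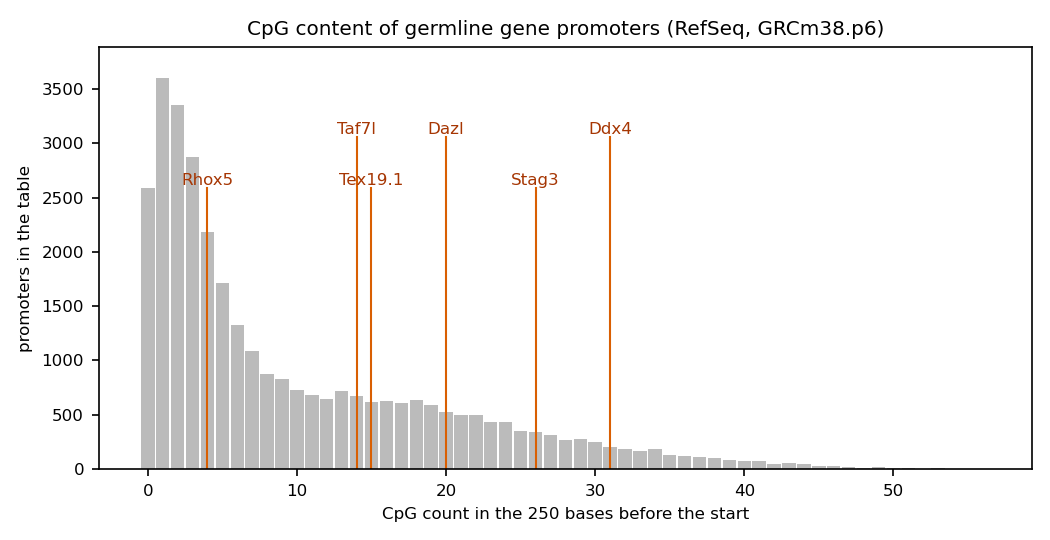
CpG count in the 250 bases before the start (x axis) against the number of promoters in RefSeq's GRCm38.p6 table (y axis, grey bars), with a vertical line at each matched germline gene; line heights carry no value. Rhox5 stands at 4, and the other 5 genes stand between 14 and 31, above the median of 6.

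The hexamer CACGTG, an E-box of the kind that MGA with its partner MAX binds, was searched on both strands (it reads the same on each) and was present in 6.02% of all windows. It was found 170 bases before the start of Stag3, 49 bases before that of Taf7l and 29 bases before that of Ddx4. An E2F-type hexamer, GCGGGA or its reverse complement TCCCGC, was present in 16.9% of windows, and was found 33 bases before the start of Tex19.1 and 136 bases before that of Ddx4. The matches of the 2 hexamers in Ddx4 do not overlap. A match describes the letters of the window and does not show binding.

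Values are normalized log2 intensities, and a probe was taken as detected, here called above background, where its detection p-value was under 0.01. Levels of different probes are not compared with each other, because probes differ in brightness. Between 40.6% and 42.4% of probes were above background on each array, and the median intensity of an array lay between 103.0 and 134.9 units. Pluripotency markers followed the labels: all 8 listed (Pou5f1, Nanog and Sox2 among them) were above background on 5 of the 6 pluripotent arrays. On LinPos_iPSC 7 were, by the brightest probe of each gene, and on LinNeg_BM 0 were. The one missed on LinPos_iPSC was Tdgf1, at 4.76. Another Tdgf1 probe was above background there, at 6.81, and not on MEF_iPSC. All 10 blood cell markers were above background on LinNeg_BM and 0 to 2 on the pluripotent arrays, Gata2 and Prtn3 being the ones found there. Of the 8 genes, 3 lie on the X chromosome: Rhox5, Rhox9 and Taf7l. The X chromosome as a whole stood within 0.07 of ESC on every iPSC array, with median differences from -0.06 in LinPos_iPSC to 0.07 in line 9.

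None of the 8 genes was above background on LinNeg_BM. On ESC 5 were, and on each of the 5 iPSC arrays 7 were, counting any probe of a gene. Tex19.1, Rhox5, Dazl, Piwil2 and Stag3 were above background on all 6 pluripotent arrays, whereas Rhox9, Taf7l and Ddx4 were near the detection limit. The pattern of being above background on all 6 pluripotent arrays and not on LinNeg_BM was found for 812 of the 9263 tested genes, or 8.77%. In these bulk samples, fewer cells expressing a gene and less RNA per cell cannot be told apart.

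The comparison of the LinNeg_iPSC lines with LinNeg_BM asked which of these genes the lines carried above the level of their cells of origin. Tests came from 1 limma fit over all 9263 genes, which called 59.5% of them, 29.6% as higher in the lines and 29.9% as lower. The higher genes were 49.8% of those called, 33.2% after median scaling in place of quantile normalization and 58.9% with detection on 3 arrays required. Of the 8 germline genes, 7 rose, 0 fell and 1, Ddx4, did not pass. Every one of the 8 entered the test through a pluripotent array, and none was above background on LinNeg_BM. The filter thus left little room for a fall, and the count is given as a description. With the LinNeg_BM values below background, folds are bounds: the mean of the lines against the lowest level that counted as above background on the LinNeg_BM array.

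Among the transposon-control genes, Tex19.1 encodes a mammal-specific protein that limits retrotransposon activity in germ cells and placenta. It read 4.56 on LinNeg_BM, 11.96 on ESC, 12.17, 11.30 and 10.90 on lines 1.1.2, 7 and 9, 11.46 on LinPos_iPSC and 11.15 on MEF_iPSC. The marrow array stood far below every pluripotent array, and line 1.1.2 and ESC were the highest. The lines rose to 11.46 ± 0.65 (SD, n = 3), at least 55.9-fold above LinNeg_BM (limma, adjusted p = 0.000303, 3 of 3 lines higher).

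Its paralog Tex19.2, also on chromosome 11, read 4.52 on LinNeg_BM, 7.32 on ESC, 7.25, 6.96 and 6.43 on lines 1.1.2, 7 and 9, 6.54 on LinPos_iPSC and 6.58 on MEF_iPSC. As for Tex19.1, ESC and line 1.1.2 were the highest and line 9 the lowest of the 6. The rise over LinNeg_BM was at least 2.34-fold (limma, adjusted p = 0.00302), and whether the probes of these related genes share signal was not tested.

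Piwil2, or MILI, is the Argonaute protein that loads piRNAs in male germ cells. It read 5.17 on LinNeg_BM, 8.22 on ESC, 8.65, 8.10 and 7.91 on lines 1.1.2, 7 and 9, 8.88 on LinPos_iPSC and 8.47 on MEF_iPSC. LinPos_iPSC was the highest and line 9 the lowest pluripotent array. The lines, at 8.22 ± 0.38 (SD, n = 3), were at least 5.92-fold above LinNeg_BM (limma, adjusted p = 0.00100). Piwil2 lies on chromosome 14, whose genes as a whole stood 0.25, 0.24, 0.18 and 0.24 above ESC on line 7, line 9, LinPos_iPSC and MEF_iPSC and 0.03 above it on line 1.1.2. The part of this chromosome-wide difference in the Piwil2 values was not tested. The other Piwi genes stayed dim: Piwil1 was above background on 2 arrays, with 6.23 on LinPos_iPSC as its highest value, and Piwil4 on 1, with 5.83 on MEF_iPSC.

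Stag3 is the cohesin subunit that replaces Stag1 and Stag2 in meiotic cells. It read 5.43 on LinNeg_BM, 10.08 on ESC, 10.39, 9.69 and 9.71 on lines 1.1.2, 7 and 9, 9.48 on LinPos_iPSC and 9.68 on MEF_iPSC. The 6 pluripotent arrays lay within 0.91 of each other, all above LinNeg_BM, where Stag3 missed the detection threshold at a detection p-value of 0.0226. The lines, at 9.93 ± 0.40 (SD, n = 3), were at least 19.4-fold above LinNeg_BM (limma, adjusted p = 0.000310). Its somatic counterparts did not do the same: Stag1 went from 8.94 to a mean of 8.86 and did not pass (limma, adjusted p = 0.725), and Stag2 fell by 0.90 on the log2 scale (limma, adjusted p = 0.0271).

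Dazl encodes an RNA-binding protein that germ cells need to enter meiosis. It read 4.45 on LinNeg_BM, 7.51 on ESC, 7.41, 7.59 and 7.40 on lines 1.1.2, 7 and 9, 7.59 on LinPos_iPSC and 6.47 on MEF_iPSC. ESC and the 4 marrow-derived iPSC arrays lay between 7.40 and 7.59, and MEF_iPSC stood 0.93 below the next array. The lines, at 7.47 ± 0.11 (SD, n = 3), were at least 3.52-fold above LinNeg_BM (limma, adjusted p = 0.000154).

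Ddx4, or mouse vasa, is the RNA helicase used as a marker of germ cells once they reach the gonad. Its 3 probes did not give the same picture. The probe that stood for the gene read 4.81 on LinNeg_BM, 5.49 on ESC, 5.40, 5.45 and 5.16 on lines 1.1.2, 7 and 9, 5.50 on LinPos_iPSC and 5.99 on MEF_iPSC, and was above background on MEF_iPSC alone. Another was above background on line 1.1.2 (5.77) and LinPos_iPSC (6.02) and read 4.73 on MEF_iPSC, the array on which the first was highest. The other one lay between 4.32 and 4.49 and was above background on no array. The difference of the lines from LinNeg_BM was 0.52 (95% interval 0.03 to 1.01; limma, adjusted p = 0.0647), both groups being below background, so no fold is given. The other probes gave differences of 1.11 and 0.10, in the order in which they are described.

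Rhox5, known as Pem, is the founding gene of the reproductive homeobox cluster on the X chromosome. It read 4.63 on LinNeg_BM, 10.12 on ESC, 11.59, 9.74 and 10.29 on lines 1.1.2, 7 and 9, 8.81 on LinPos_iPSC and 11.75 on MEF_iPSC. MEF_iPSC and line 1.1.2 stood together at the top and LinPos_iPSC at the bottom, all far above LinNeg_BM. The lines, at 10.54 ± 0.95 (SD, n = 3), were at least 29.6-fold above LinNeg_BM (limma, adjusted p = 0.00155).

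Rhox9, another gene of the cluster, known from gonad and placenta, read 4.39 on LinNeg_BM, 4.97 on ESC, 5.17, 5.85 and 5.91 on lines 1.1.2, 7 and 9, 4.97 on LinPos_iPSC and 5.67 on MEF_iPSC. It was above background on lines 7 and 9 and on MEF_iPSC. Line 1.1.2 and MEF_iPSC, both high in Rhox5, thus differed in Rhox9 detection. Rhox9 rose by 1.25 over LinNeg_BM (limma, adjusted p = 0.0245), and no fold is given because the mean of the lines, 5.64, was under the lowest level above background on the LinNeg_BM array, 5.65. Of the 8 Rhox genes on the platform, the 6 others (Rhox1, Rhox6, Rhox8, Rhox10, Rhox11 and Rhox12) were above background on no array, with 5.54 as their highest value.

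Taf7l encodes a paralog of the TFIID subunit TAF7 that acts in male germ cells. It read 4.36 on LinNeg_BM, 5.48 on ESC, 6.42, 5.97 and 5.86 on lines 1.1.2, 7 and 9, 6.08 on LinPos_iPSC and 5.31 on MEF_iPSC. All 4 marrow-derived iPSC arrays were above background, and ESC, MEF_iPSC and LinNeg_BM were not. ESC and MEF_iPSC missed the threshold narrowly, at detection p-values of 0.0150 and 0.0226, beside 0.965 on LinNeg_BM. The lines, at 6.09 ± 0.30 (SD, n = 3), were at least 1.35-fold above LinNeg_BM (limma, adjusted p = 0.00382). Taf7 itself read between 4.65 and 6.26 and was above background on 3 arrays.

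The lines were compared with ESC, MEF_iPSC and LinPos_iPSC to ask whether their germline gene levels stood apart from those of other pluripotent cultures. Over all genes, 0% differed from ESC, 0.0756% (7 genes, 0.054% higher in the lines and 0.0216% lower) from MEF_iPSC and 0.313% (29 genes, 0.281% higher and 0.0324% lower) from LinPos_iPSC. With line 1.1.2, 7 or 9 left out, 0 to 2 genes differed from MEF_iPSC and 0 from LinPos_iPSC. Of the genes that differed from LinPos_iPSC, 89.7% were higher in the lines, and 55.2% after median scaling. The limma fit called 0 of the 8 germline genes in each of the 3 comparisons. At an unadjusted p under 0.05 it gave 0 of the 8 against ESC, 3 against MEF_iPSC and 0 against LinPos_iPSC. Over all 9263 genes it gave 956, 1201 and 1494. The 3 did not share a direction, Dazl and Taf7l being higher in the lines and Ddx4 lower. Each of these comparisons rests on 1 array on the other side, so their intervals are wide.

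Against ESC, the closest genes were Piwil2, with a difference of -0.004 (95% interval -0.81 to 0.80), and Dazl, with -0.04 (95% interval -0.49 to 0.40). Stag3 differed by -0.15 (95% interval -0.97 to 0.68), Tex19.1 by -0.50 (95% interval -1.76 to 0.76) and Rhox5 by 0.42 (95% interval -1.37 to 2.21). The wide intervals of Tex19.1 and Rhox5 follow the spread of the 3 lines, whose SDs of 0.65 and 0.95 were larger than those of 98.8% and 99.8% of the 9263 genes. Dazl, with an SD of 0.11, was above 29.2% of genes. Of the genes near background, Rhox9 differed from ESC by 0.68, Taf7l by 0.60 and Ddx4 by -0.16, with adjusted p-values of 0.549, 0.511 and 0.816 in limma.

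Line 1.1.2 was the highest of the 3 lines for Tex19.1, Rhox5, Taf7l, Piwil2 and Stag3. It stood above ESC by 0.22 for Tex19.1, 1.47 for Rhox5, 0.43 for Piwil2 and 0.31 for Stag3, whereas line 7 stood below ESC for each of these 4 genes. Line 9 was below ESC for Tex19.1, Piwil2 and Stag3 and 0.17 above it for Rhox5. These differences among single lines have no replicate within a line.

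**Figure D2:**
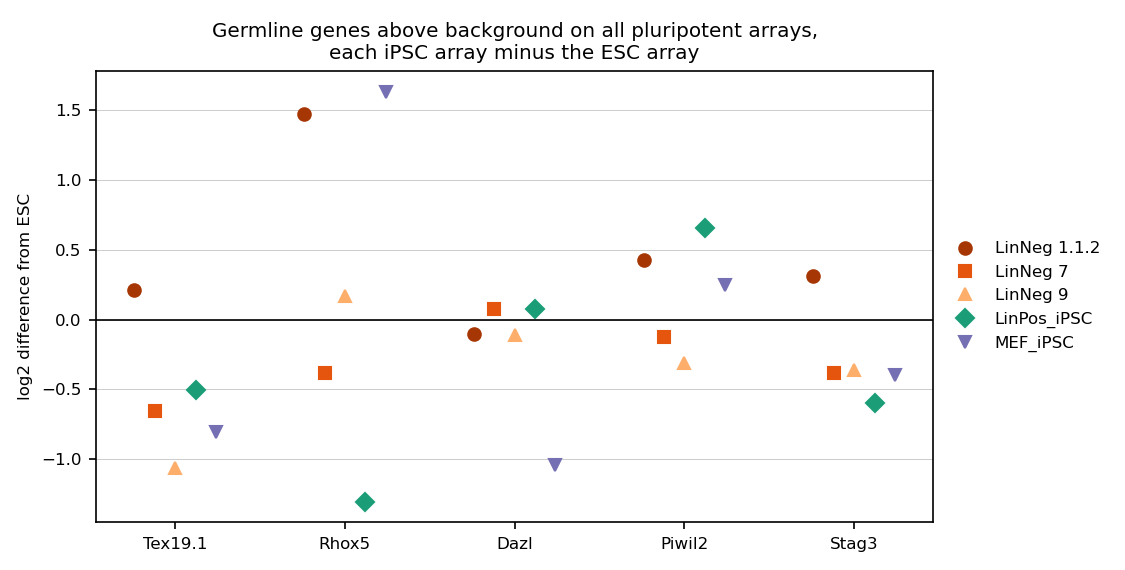
Log2 difference of each iPSC array from the ESC array (y axis) for the 5 germline genes above background on all pluripotent arrays (x axis); each point is 1 array and the line at 0 is ESC. Rhox5 spans from -1.31 in LinPos_iPSC to 1.63 in MEF_iPSC, and for Dazl only MEF_iPSC lies apart, at -1.04, among the 5 iPSC arrays.

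Rhox5 was the most variable of the 5 bright genes. From its lowest array, LinPos_iPSC, to its highest, MEF_iPSC, it spanned 2.94 on the log2 scale, or 7.68-fold, wider than 99.7% of the 6637 genes above background on all 6 pluripotent arrays. Relative to ESC, line 1.1.2 was 2.77-fold, MEF_iPSC 3.10-fold and LinPos_iPSC 0.404-fold. In order, MEF_iPSC stood 0.16 above line 1.1.2, and line 1.1.2 stood 1.30 above line 9, the widest gap. The gaps from line 9 to ESC, line 7 and LinPos_iPSC, each to the next, were 0.17, 0.38 and 0.93. The SD of the lines, 0.95, includes the distance between lines 1.1.2 and 9, so it is no separate measure for that gap. The lines exceeded LinPos_iPSC by 1.73 (95% interval -0.06 to 3.52; limma, adjusted p = 0.323), and their difference from MEF_iPSC was -1.21 (95% interval -3.00 to 0.58; adjusted p = 0.535), neither of which passed.

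Because extraembryonic endoderm is a known site of Rhox5 expression, its markers were read on the same arrays. Of 10 such markers, 0 were above background on LinNeg_BM, 8 on lines 1.1.2 and 9, 6 on ESC, line 7 and LinPos_iPSC and 5 on MEF_iPSC, with Sparc the brightest. Their summed normalized intensity ran from 2772 on MEF_iPSC through 2902 on ESC, 3677 on line 7, 4223 on LinPos_iPSC and 6088 on line 9 to 7153 on line 1.1.2. MEF_iPSC, the highest in Rhox5, was the lowest in these markers, and line 1.1.2, the next highest in Rhox5, was the highest in them. Of the transcription factors on that list, Sox17 and Sox7 were above background on lines 1.1.2 and 9 alone, and another probe of each on no array. Gata6 was above background on every pluripotent array but MEF_iPSC, and Gata4 on none. Trophoblast, another known site, gave 1 to 3 of 8 markers above background on each array. Tead4 was above background on every pluripotent array, Krt7 on ESC, line 9 and LinPos_iPSC, and Eomes on LinPos_iPSC. Gata3 was on LinNeg_BM alone, and Elf5, Hand1, Cdx2 and Ascl2 were on none. Of 9 Sertoli and Leydig cell markers, Dhh and Inha were above background on LinPos_iPSC, and 0 were on the other pluripotent arrays. The part of these cell types in the Rhox5 levels was not tested beyond these values.

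For Dazl, ESC and the 4 marrow-derived iPSC arrays lay close together, with MEF_iPSC below them. MEF_iPSC was at 0.486-fold of ESC, and its gap of 0.93 to line 9 was the one gap in the order that exceeded the SD of the lines. The lines exceeded MEF_iPSC by 1.00 (95% interval 0.55 to 1.44), with 3 of 3 lines higher, an unadjusted p of 0.00205 and an adjusted p of 0.180 in limma, which did not pass. Taf7l leaned the same way, by 0.78 (95% interval 0.10 to 1.45; adjusted p = 0.331), and Ddx4 the other way, by -0.66 (95% interval -1.15 to -0.17; adjusted p = 0.289). MEF_iPSC was below background for Taf7l, and the lines were below background for the Ddx4 probe.

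Tex19.1, Piwil2 and Stag3 had no gap between neighbouring arrays wider than the SD of the lines. These SDs were larger than those of 98.8%, 88.7% and 89.7% of the 9263 genes, so a wider gap was hard to reach. The 6 pluripotent values of these genes spanned 1.28 (2.42-fold), 0.97 (1.96-fold) and 0.91 (1.87-fold). The median span was 0.58 over the 6637 genes above background on all 6. Against LinPos_iPSC the lines differed by 0.00045 for Tex19.1 (95% interval -1.26 to 1.26), -0.66 for Piwil2 (95% interval -1.47 to 0.15) and 0.45 for Stag3 (95% interval -0.38 to 1.28). Against MEF_iPSC the differences were 0.30, -0.25 and 0.25 in the same order of genes.

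The other genes of these pathways were read as 7 lists, in which some of the 8 genes also take part. Against LinNeg_BM, counts of each list are to be read beside the 29.6% of all tested genes called higher and 29.9% called lower. A gene not above background on LinNeg_BM had little room to be called lower. It did not have to rise, as Ddx4, which did not pass, shows. In the piRNA and germline transposon defence list, 11 of 20 genes were tested, and 5 rose, 2 fell and 4 did not pass against LinNeg_BM, with a median difference of 0.52 beside 0.02 over all genes, and 2 of the 11 were above background on LinNeg_BM. Besides Tex19.1, Piwil2 and Tex19.2, the tudor-domain gene Tdrd12 rose to 8.54 ± 0.42 (SD, n = 3) from 4.92, at least 7.42-fold (limma, adjusted p = 0.000723). Across the pluripotent arrays it read 8.23 on ESC, 8.35, 8.26 and 9.03 on lines 1.1.2, 7 and 9, 7.26 on LinPos_iPSC and 10.32 on MEF_iPSC, so that, as for Rhox5, LinPos_iPSC was the lowest and MEF_iPSC the highest. Its differences from these 2 arrays, 1.29 and -1.78, did not pass (adjusted p = 0.193 and 0.192). Tdrd7, a tudor-domain gene of germ granules, fell by 2.69 on the log2 scale from 8.83 (limma, adjusted p = 0.000329).

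Of 26 meiosis genes, 10 were tested, with 5 that rose, 2 that fell and a median difference of 1.05, and 5 of the 10 were above background on LinNeg_BM. Tex14, needed for the bridges between dividing germ cells, rose to 8.77 ± 0.16 (SD, n = 3), at least 8.66-fold above LinNeg_BM (limma, adjusted p = 0.0000803). Tex11, an X-linked meiotic gene, rose at least 2.96-fold (adjusted p = 0.000734), and Smc1b, the meiotic cohesin partner of Stag3, at least 1.70-fold (adjusted p = 0.0300). Msh5, a meiotic mismatch-repair family gene, fell at least 3.51-fold (adjusted p = 0.00144), from 7.35 on LinNeg_BM to a level not above background on the lines, and its other probes gave differences of -2.71 and -0.57. Smc1b read 7.41 on ESC, 7.22, 6.30 and 5.75 on lines 1.1.2, 7 and 9, 5.96 on LinPos_iPSC and 7.07 on MEF_iPSC, with an SD of 0.75 among the lines.

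In the primordial germ cell list 9 of 11 tested genes rose, 0 fell, and the median difference was 3.02, but only 4 of the 11 were above background on LinNeg_BM, so for the other 7 the filter left little room for a fall. Several of these genes are also pluripotency genes. Sall4 rose at least 77.7-fold to 11.93 ± 0.05 (SD, n = 3; limma, adjusted p = 0.0000278), and Tfap2c at least 51.4-fold to 11.34 ± 0.20 (adjusted p = 0.0000416), although other probes of both gave smaller differences, of 5.37 and 0.60 for Sall4 and 5.70 and 3.25 for Tfap2c. Dppa3, or Stella, rose at least 18.6-fold (adjusted p = 0.0000640) and Alpl, the alkaline phosphatase of stem and germ cells, by 3.94 (adjusted p = 0.0000739). Dppa3 read 8.49 on LinPos_iPSC and between 9.72 and 10.22 on the other pluripotent arrays, a difference of 1.38 from the lines that did not pass (adjusted p = 0.0872).

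The cohesin and TFIID lists hold complexes that most cells use. Among 14 tested cohesin genes, 3 rose (Stag3, Smc1b and Cdca5, a regulator of cohesion in dividing cells, by 1.17) and 4 fell, with a median of 0.26, and 12 of the 14 were above background on LinNeg_BM. Among 12 tested TFIID genes, 2 rose, Taf7l and Taf9, and 3 fell, with Taf9b the farthest, by -1.95 (limma, adjusted p = 0.00379), and 10 of the 12 were above background on LinNeg_BM. Taf9 rose by 0.84 (limma, adjusted p = 0.0167), and its other probes gave 0.06 and 0.02.

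The list of repressors of germline genes had 18 tested genes, of which 5 rose, 5 fell and 16 were above background on LinNeg_BM, with a median of 0.03. Dnmt3l, the cofactor of the de novo DNA methyltransferases, rose at least 175-fold to 13.11 ± 0.36 (SD, n = 3; limma, adjusted p = 0.0000579), and Dnmt3b, one of those enzymes, by 2.28 (adjusted p = 0.000308). Their other probes gave differences of 7.91 and 1.20. Pcgf6, the polycomb subunit of the germline-gene repressor complex, rose by 2.26 (adjusted p = 0.000295), whereas E2f6 of the same complex fell by 1.34 on the log2 scale (adjusted p = 0.00220), with probes that gave -1.47 and 0.23 besides. Dnmt3b was 1.22 higher on the lines than on LinPos_iPSC, which did not pass (adjusted p = 0.0806).

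No gene of the 7 lists was called against ESC, MEF_iPSC or LinPos_iPSC by limma, and list medians lay between -0.17 and 0.17 there, apart from the Rhox list of 2 genes, with 0.55, -0.62 and 1.20.

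**Figure D3:**
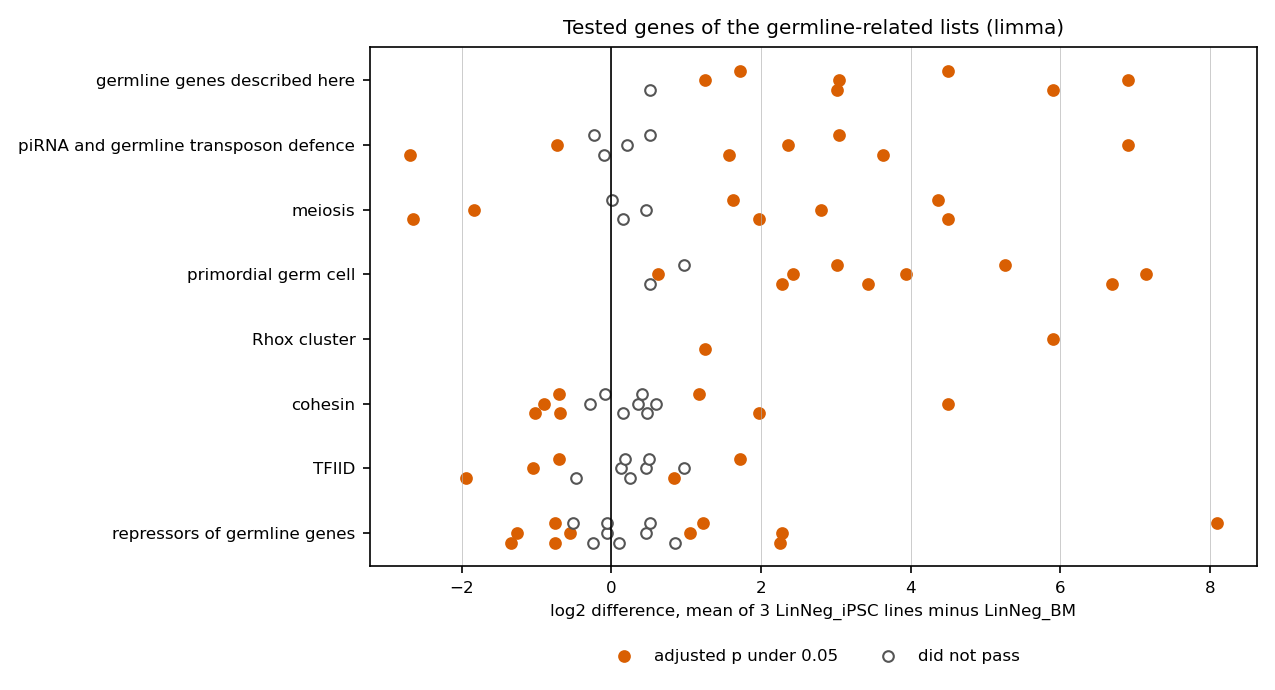
Log2 difference of the mean of 3 LinNeg_iPSC lines from the LinNeg_BM array (x axis) for each tested gene, by list (y axis); filled points passed limma's test at an adjusted p under 0.05 and open points did not, and vertical offsets within a list carry no value. The 8 germline genes and the 11 primordial germ cell genes all lie above 0, and the other lists but the Rhox cluster lie on both sides. Of the tested genes, 0 of 8 germline, 0 of 2 Rhox, 2 of 11 piRNA and 5 of 10 meiosis genes were above background on LinNeg_BM. So were 4 of 11 primordial germ cell, 12 of 14 cohesin, 10 of 12 TFIID and 16 of 18 repressor genes. A gene not above background there had little room to be called lower.

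Other readouts that separate the arrays were set beside these values. Some cultured stem cells enter a 2-cell-like state for a time. Of 5 markers of it, 4 (Eif1a, Tcstv1, Tcstv3 and Zscan4c) were above background on every pluripotent array but LinPos_iPSC. On LinPos_iPSC and LinNeg_BM only Eif1a was, at 11.62 and 10.53, and Zfp352 was on no array. Zscan4c read 8.53 on ESC, 8.98, 9.19 and 9.33 on lines 1.1.2, 7 and 9, and 8.57 on MEF_iPSC. Its value on LinPos_iPSC was 4.82, not above background. On LinPos_iPSC, Rhox5 was lowest and Piwil2 highest. Of 11 fibroblast or feeder markers, 5 to 8 were above background on the pluripotent arrays and 2 on LinNeg_BM, with Thy1 the brightest and with a summed normalized intensity of 4834 on line 7 and of 1259 to 1862 on the others. Line 7 was the highest pluripotent array for Dazl, level with LinPos_iPSC at 7.59, and was neither the highest nor the lowest for Tex19.1, Rhox5, Piwil2 and Stag3. Xist, the RNA of the silenced X chromosome, read 11.89 on LinNeg_BM and 5.72 on line 7, where it was just above background. On the other pluripotent arrays it read 4.85 to 5.25 and was not above background. Another Xist probe read 10.24 on LinNeg_BM and 4.97 on line 7, where it was not above background. The part of these differences in the germline gene levels was not tested.

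Genes whose levels ran most alike were sought by Pearson correlation over the 6 pluripotent arrays, among 1851 genes with an SD of at least 0.3. For Tex19.1 they were Slc30a1, Aqr and Tuba3a, with r of 0.948, 0.939 and 0.917. For Rhox5 they were Fbxo9, Zfp607a and Mpv17l, with r of 0.966, 0.944 and 0.935. For Dazl, whose order rests on the low MEF_iPSC array, they were Aldh4a1, Abhd4 and Tmem126b, with r of 0.987, 0.981 and 0.973. For Piwil2 they were Rusc2, Car11 and S100a13, with r of 0.974, 0.950 and 0.948, and for Stag3 Bmerb1, Acad10 and Pdrg1, with r of 0.984, 0.975 and 0.972. Between 7 and 44 genes had r above 0.9 for each of the 5, and none of the genes named is on the germline lists. With 6 points that share array and culture, these likenesses are descriptions only.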

How the data were processed

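RNA of the 7 samples was amplified, biotin-labelled and hybridised to Illumina mouse bead arrays, per the labels' protocols. The deposited table gave 1 intensity on a linear scale per probe and array, not background-subtracted, and a detection p-value beside it. A further deposited table gave the authors' log2 values, with the same distribution on every array, which served as an alternative. BeadStudio 3.2, RMA and lumi stand in the submitters' processing notes without role or order. The number of arrays limits the precision.

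Intensities were corrected with neqc (limma 3.58.1, R 4.3.3, offset 16), which infers negative controls from the detection p-values, then quantile-normalized and taken to log2. Above background meant a detection p-value under 0.01. Of 25697 probes, 23978 had 1 gene symbol in the platform annotation, 0 had several and 1719 were not listed. Chromosomes came from GRCm38.p6 by gene identifier (23962 probes matched). The brightest probe above background stood for its gene, by the mean over all arrays, which left 9263 genes. They were tested with lmFit and eBayes in 1 fit of 5 groups, with Benjamini-Hochberg adjustment (threshold 0.05). Only the 3 lines inform the residual variance (2 residual and 3.16 prior degrees of freedom), and a group of 1 array was assumed to vary as they do. The fit was tested on simulated data. The 4 comparisons share the LinNeg_iPSC arrays.

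The members and lists were chosen with earlier results of these data known. Genes named besides the 8 members were, for each list and comparison, up to 4 called genes with the widest differences, or the widest 1 or 2 where none was called, together with related genes (Tex19.2, Taf7, Stag1, Stag2, Piwil1, Piwil4), Xist, leading markers and the 3 most alike genes of each bright member. Sox17, Sox7, Gata6, Gata4, Zscan4c, Dhh, Inha and Tdgf1 were named from the marker lists after their values were seen. So were the trophoblast markers and the other 2-cell-like markers. Alternatives were other background corrections, scalings, detection filters, probe rules, an intensity trend, the authors' values and leaving out each line.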

Additional observations from a re-analysis of the deposited data

How the results depend on the processing

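Across 12 alternatives, Tex19.1, Rhox5, Rhox9, Dazl, Taf7l, Piwil2 and Stag3 stayed called above LinNeg_BM in limma, from 0.84 to 2.89 for Rhox9 (highest adjusted p = 0.0495) and from 5.40 to 8.73 for Tex19.1. Ddx4 crossed the threshold in 2 of the 11 that tested it, at 0.59 with cyclic loess and 1.07 with the authors' values (adjusted p = 0.0338 and 0.0357); the cause was not tested. In 285 fits of a member against another pluripotent group, 0 were called (lowest adjusted p = 0.0885). The calls against LinNeg_BM are a description, as in the main fit, because none of the 8 genes was above background there. Some uncalled differences from the other pluripotent groups changed sign. Leaving out 1 line at a time, the range was -0.055 to 0.58 for Tex19.1 against MEF_iPSC, -0.36 to 0.28 for Tex19.1 against LinPos_iPSC, -0.11 to 0.82 for Rhox5 against ESC, -0.16 to 0.21 for Rhox9 against MEF_iPSC and -0.17 to 0.11 for Taf7l against LinPos_iPSC, each turned by line 1.1.2. For Piwil2 against ESC it was -0.22 to 0.15, turned by line 7 or 9. With a common median, Tex19.1 and Taf7l against LinPos_iPSC gave -0.21 and -0.016, with cyclic loess Tex19.1 gave -0.0037 and Piwil2 against ESC 0.0042, with normexp Piwil2 gave 0.00075, and with the authors' values Taf7l gave -0.0054. The 7 genes that differed from MEF_iPSC over all genes became 91 with normexp, 22 with a common median, 3 with the authors' values, 11 with every probe tested, 65 with an intensity trend and 0 to 2 without 1 line. The 29 against LinPos_iPSC became 216, 116 and 11 in the first 3 of these, 51 with detection on 3 arrays required, 19 with no filter, 181 with the trend and 0 to 0 without 1 line. The share of these that were higher in the lines, 89.7%, became 56.9% with normexp, 55.2% with a common median and 63.0% with the trend. Against LinNeg_BM, the share higher moved from 49.8% to 33.2% with a common median, which shifted the median of all genes to -0.39, and to 58.9% with the stricter detection filter. No paired analysis was possible because every other group had 1 array, so that no group shared 2 replicate numbers with the lines. A slide block was not run, the slide not being known here. Rhox9, Taf7l and Ddx4 lay close to background, where signal limits what can be told.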
